A study of Homo sapiens with 14 samples.

Results

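The HOX cluster genes are the protein-coding genes of GENCODE whose symbol is HOXA, HOXB, HOXC or HOXD followed by a number. The rule found 39 of the 20033 protein-coding genes, namely 11 HOXA genes on chromosome 7, 10 HOXB genes on chromosome 17, 9 HOXC genes on chromosome 12 and 9 HOXD genes on chromosome 2. KLF4 was mapped by ChIP-seq, which sequences the DNA bound to an immunoprecipitated protein, in BEAS-2B, an established human bronchial epithelial cell line. The 4 KLF4 libraries, 1 per condition, came from wild-type (WT) control cells, WT cells given 1 µM As3+ (trivalent arsenic) for 6 h, Nrf2 knockout (KO) control cells and Nrf2 KO cells given the same As3+ treatment. The KO cells were made with CRISPR-Cas9 guide RNAs against NFE2L2, the gene of the stress-response factor Nrf2. They were picked as colonies without detectable Nrf2 protein, and colonies that still expressed Nrf2 were classed by the authors as WT. How many clones went into a library is not given in the sources used here. The lists hold peaks and no expression, so neither the knockout nor the cell type was checked here. With 1 library per condition no difference below has a replicate check, and no test was made.

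HOX genes encode homeodomain transcription factors that give cells their position along the body axis. Within each cluster they lie in the order in which they are used, with low-numbered genes at the 3′ end acting towards the head and high-numbered genes at the 5′ end acting towards the tail and in the limb ends. Genes of the same number in different clusters are paralogs. The clusters are rich in CpG dinucleotides, are held silent by Polycomb proteins and kept active by Trithorax proteins, and cells of adult tissues keep part of their positional pattern. KLF4 is a zinc-finger factor of epithelia and one of the reprogramming factors, and it binds CACCC-type words.

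A peak is an interval listed by the authors as holding more fragments than a local background, and which library gave that background is not given in the sources used here. The lists held 751 peaks in WT control, 29870 in WT As3+, 76545 in Nrf2 KO control and 130 in Nrf2 KO As3+. The fold and p of each peak give the number of fragments over its summit, the point of highest signal, and the background expected there. The lowest background of a list was 0.491 fragments in Nrf2 KO control, 0.757 in WT As3+, 1.64 in Nrf2 KO As3+ and 1.90 in WT control, so this measure of depth was lowest in the libraries with the long lists. Its part in the differences between the lists was not tested.

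In WT As3+ cells, 25 of the 39 HOX genes (64.1%) had a KLF4 summit within 2 kb of the gene, beside 63.9% of all protein-coding genes. In Nrf2 KO control cells 36 of 39 (92.3%) had one, beside 78.6%. No HOX gene had one in WT control, where 2.28% of protein-coding genes did, or in Nrf2 KO As3+, where 0.414% did. Counted once each, the summits were 33 in WT As3+ and 92 in Nrf2 KO control, in 410.2 kb of HOX genes with 2 kb on either side, and 0 in each of the other libraries. Every value for a HOX gene below is from the WT As3+ or the Nrf2 KO control library, and the value in the other libraries was 0 peaks.

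The 2 short lists hold few peaks, and their 0 does not show that HOX genes lacked KLF4. HOX peaks made up 0.11% of the WT As3+ list, and at that share a list of 751 peaks would hold 0.83 HOX peaks and a list of 130 would hold 0.144. The peak of the WT control list nearest to a cluster lay 211 kb from HOXC, next to the transcription start site (TSS) of CALCOCO1, and the others lay 294 kb from HOXB, 1305 kb from HOXD and 3279 kb from HOXA. By fold, 22 of the 33 WT As3+ peaks and 70 of the 92 Nrf2 KO control peaks reached 4.05, the lowest fold that the WT control list holds where its background is lowest. Fold is relative to the background of each library, so this does not show that they would have been listed in WT control. There such peaks rested on 11 fragments or more, while HOX summits rested on 4 to 14.

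**Figure D1:**
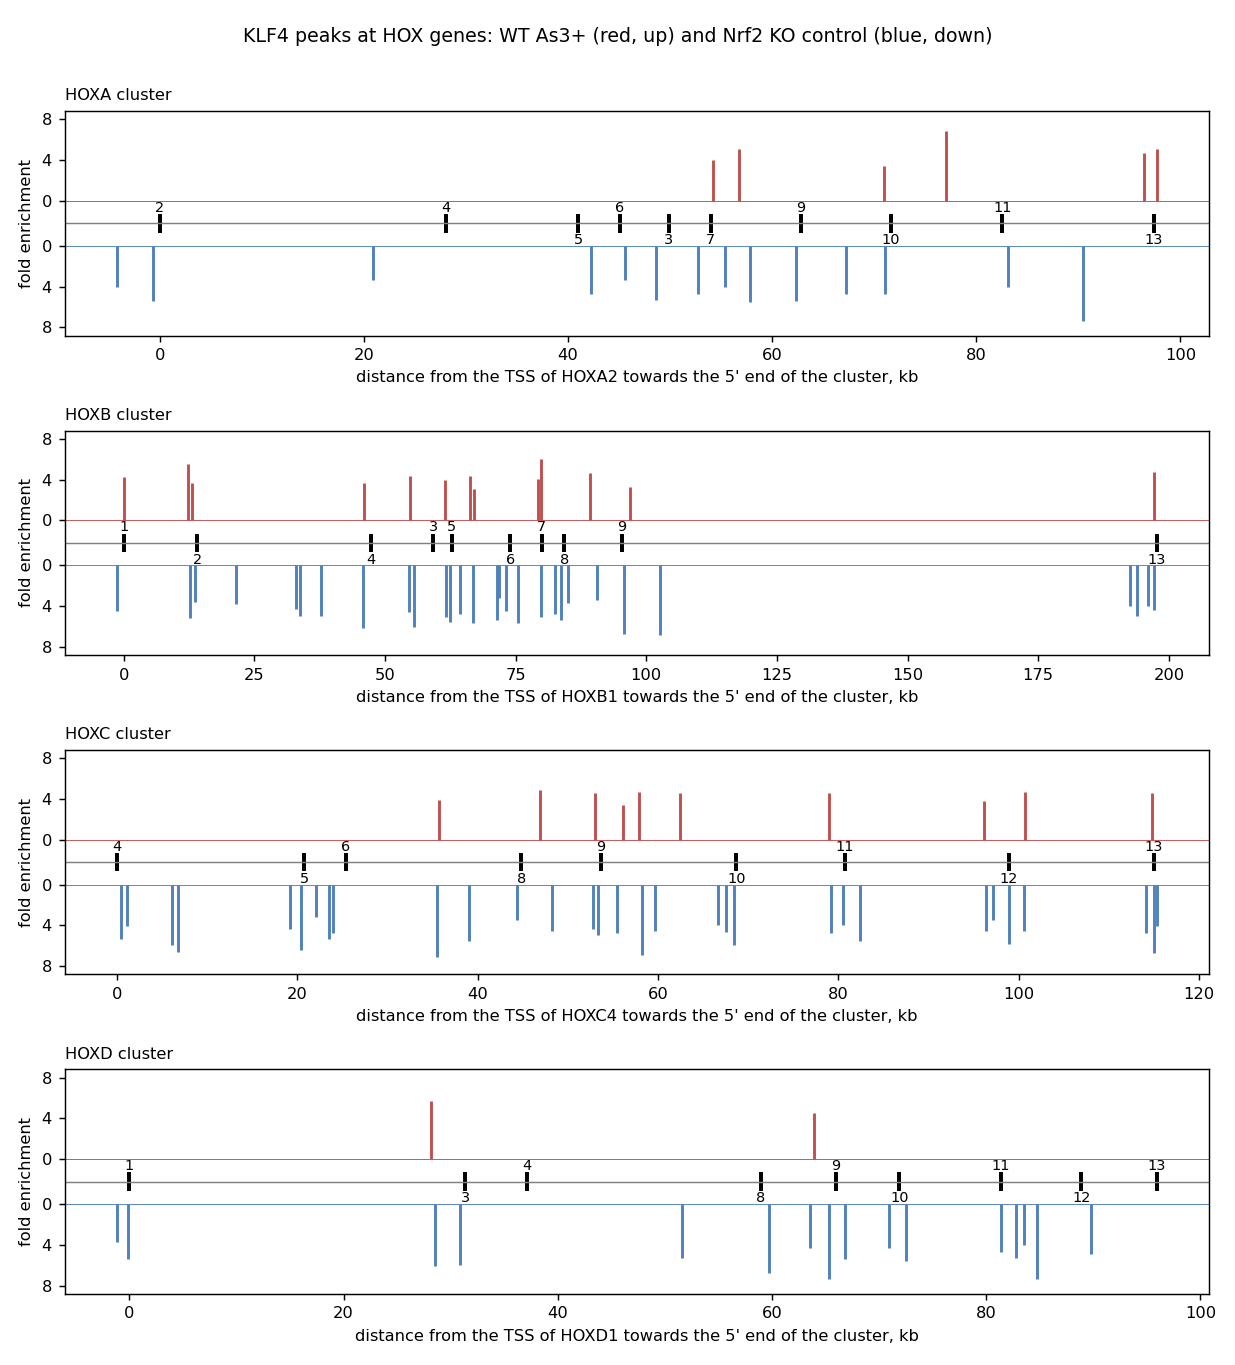
Maps of the 4 HOX clusters, with the HOXA map starting at HOXA2, and with the 3′ end on the left. The horizontal axis is the distance from the canonical TSS of the first gene shown in kb, black ticks with numbers mark the canonical TSS of the genes, and vertical lines are KLF4 peaks within 2 kb of a gene shown with their fold enrichment, WT As3+ in red upwards and Nrf2 KO control in blue downwards. The HOXD cluster holds 2 red lines and 16 blue ones, and HOXA has none in red within 2 kb of HOXA2 to HOXA6.

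The DNA under the strongest HOX peaks shows what these intervals are made of. For each cluster the peak with the highest −log10 q of each long list was taken, and 200 bases around its summit are given on the plus strand of hg38. Capitals mark CCACACCC or CCACGCCC and their complements GGGTGTGG and GGGCGTGG, called the KLF word here, and the GC box CCCCGCCCC or GGGGCGGGG. The first 2 come from WT As3+ and the other 4 from Nrf2 KO control, and the gene is the member with the nearest canonical TSS.
HOXC9, WT As3+, chr12:53995873-53996072: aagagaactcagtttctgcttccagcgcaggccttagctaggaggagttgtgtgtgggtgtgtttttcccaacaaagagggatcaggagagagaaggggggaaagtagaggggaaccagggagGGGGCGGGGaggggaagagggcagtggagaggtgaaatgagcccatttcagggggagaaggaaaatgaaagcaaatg
HOXD3, WT As3+, chr2:176160368-176160567: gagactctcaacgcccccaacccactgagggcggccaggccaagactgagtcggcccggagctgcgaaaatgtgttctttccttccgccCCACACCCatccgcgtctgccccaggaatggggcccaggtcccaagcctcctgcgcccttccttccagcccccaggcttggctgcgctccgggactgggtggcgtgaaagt
HOXA13, Nrf2 KO control, chr7:27193082-27193281: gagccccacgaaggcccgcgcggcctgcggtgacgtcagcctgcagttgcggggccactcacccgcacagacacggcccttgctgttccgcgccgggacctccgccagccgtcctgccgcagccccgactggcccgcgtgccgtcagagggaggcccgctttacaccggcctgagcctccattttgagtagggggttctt
HOXB9, Nrf2 KO control, chr17:48633490-48633689: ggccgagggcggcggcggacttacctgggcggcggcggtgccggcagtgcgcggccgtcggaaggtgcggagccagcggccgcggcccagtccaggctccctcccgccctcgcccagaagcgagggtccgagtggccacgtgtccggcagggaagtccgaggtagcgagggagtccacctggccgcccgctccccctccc
HOXC8, Nrf2 KO control, chr12:54018266-54018465: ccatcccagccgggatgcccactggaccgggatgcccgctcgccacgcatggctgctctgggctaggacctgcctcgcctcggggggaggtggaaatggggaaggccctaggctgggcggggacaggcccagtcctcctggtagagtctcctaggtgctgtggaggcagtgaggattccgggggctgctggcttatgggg
HOXD11, Nrf2 KO control, chr2:176103846-176104045: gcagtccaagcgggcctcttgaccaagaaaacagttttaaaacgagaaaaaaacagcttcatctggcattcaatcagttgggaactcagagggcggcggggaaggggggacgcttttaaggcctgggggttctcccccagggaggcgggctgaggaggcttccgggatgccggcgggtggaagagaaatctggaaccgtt
The KLF word occurs in 1 of these 6 windows, at HOXD3, and the GC box in 1, at HOXC9. The windows of the strongest HOXA and HOXB peaks in WT As3+ are not printed, the former because it lies in an untranslated exon.

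In the HOXA cluster, WT As3+ had 8 peaks at 6 of the 11 genes and Nrf2 KO control had 16 peaks at 10 of them. The strongest WT As3+ peak of all HOX genes lay here, at chr7:27179555-27180030. Its fold was 6.83 and its −log10 q 6.85, which placed it at rank 5407 of the 29870 peaks of the list, and it rested on 11 fragments (exact Poisson 95% interval 5.49 to 19.7, counting error only) over a background of 0.757. It lay 5423 bp upstream of the canonical TSS of HOXA10, a gene of the uterus and of blood progenitors, and 518 bp from the start of another HOXA10 transcript, and did not overlap a Nrf2 KO control peak. HOXA10 had 2 WT As3+ peaks, and no HOXA gene had more.

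The genes from HOXA2 to HOXA6 had no WT As3+ peak within 2 kb, while those from HOXA7 to HOXA13 had 1 or 2 each. HOXA2, a gene of hindbrain and branchial arch patterning, had 0 WT As3+ and 2 Nrf2 KO control peaks, the highest with a fold of 5.37. HOXA3, which patterns thymus and parathyroid, had 0 and 4, HOXA5, needed for lung and trachea development, had 0 and 1, and HOXA6 had 0 and 3. HOXA4 had no peak within 2 kb in any list, and the nearest summits lay 26118 bp from its TSS in WT As3+ and 7211 bp in Nrf2 KO control. The strongest Nrf2 KO control peak of HOXA had a fold of 7.34 on 10 fragments (4.80 to 18.4) and lay 6909 bp downstream of the TSS of HOXA13, a gene of the hand, foot and genital tract.

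In the HOXB cluster all 10 genes had a peak in both long lists, beside 61.2% of all protein-coding genes. The distinct peaks were 13 in WT As3+ and 29 in Nrf2 KO control, and some counted for more than 1 gene. HOXB7, a gene of the trunk region, had the strongest WT As3+ peak of the cluster, in its coding exon 1 and 205 bp downstream of its TSS. The fold was 6.00 and the −log10 q 6.54, on 14 fragments (7.65 to 23.5) over a background of 1.502. A Nrf2 KO control peak with a fold of 5.07 on 9 fragments had its summit 36 bp away, so the first exon of HOXB7 was listed in both. HOXB3 had the most peaks of the cluster, with 5 in WT As3+ at folds up to 4.33 and 15 in Nrf2 KO control at folds up to 6.12. The gene body of HOXB3 spans 56043 bp and overlaps its neighbours, and no summit of either list lay within 1 kb of its canonical TSS. The strongest Nrf2 KO control peak of HOXB, with a fold of 6.86, lay 18 bp from the start of a HOXB7 transcript other than the canonical one. HOXB7 was the only HOX gene within 2 kb of it, and the nearest canonical TSS, that of HOXB9, was 7232 bp away.

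In the HOXC cluster WT As3+ had 10 peaks at 7 of 9 genes and Nrf2 KO control had 31 at all 9. Its WT As3+ peak with the highest −log10 q, at chr12:53995816-53996314, had a fold of 4.72 and a −log10 q of 3.93 on 11 fragments (5.49 to 19.7). A Nrf2 KO control peak with a fold of 6.94 covered it in full. The WT As3+ peak lay 4188 bp upstream of the canonical TSS of HOXC9, a thoracic gene, and 464 bp from the start of another HOXC9 transcript. By fold, a WT As3+ peak between HOXC8 and HOXC9 was higher, at 4.903 on 9 fragments. HOXC6, a gene of the upper trunk whose body spans 40200 bp, had 6 WT As3+ peaks within 2 kb, the most of any HOX gene, and the nearest lay 10383 bp from its canonical TSS. At the 3′ end of the cluster 39.97 kb with the TSS of HOXC4, HOXC5 and HOXC6 held no WT As3+ summit and 10 Nrf2 KO control summits. HOXC5 had 0 WT As3+ peaks and 3 in Nrf2 KO control with folds up to 6.46, and HOXC8, a gene of the lower thorax, had 0 and 1. The strongest HOX peak of the Nrf2 KO control list by −log10 q (7.43, fold 7.13, 12 fragments with an interval of 6.201 to 21.0) lay here at chr12:54017919-54018527, within 2 kb of HOXC4 and HOXC6, while the nearest canonical TSS, that of HOXC8, was 9381 bp away. It overlapped a WT As3+ peak with a fold of 3.898.

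In WT As3+ the HOXD cluster had the fewest peaks, 2 at 2 of its 9 genes. In Nrf2 KO control it had 16, at 7 of them. The count of 2 comes from 1 library, and the difference between clusters was not tested. In peaks per 10 kb of gene windows WT As3+ reached 0.223 in HOXD, beside 0.755 in HOXA, 1.17 in HOXB and 0.969 in HOXC, while Nrf2 KO control gave 1.78 beside 1.51, 2.61 and 3.002. One WT As3+ peak, with a fold of 5.69 on 9 fragments (4.12 to 17.1), lay in intron 1 of HOXD3, a gene of the neck vertebrae, and the other, with a fold of 4.52 on 7 fragments, lay in the 3′-UTR of HOXD9. Neither overlapped a Nrf2 KO control peak and neither lay within 1 kb of a canonical TSS. The summit in HOXD3 lay 423 bp from the start of another HOXD3 transcript. HOXD1, HOXD8, HOXD10, HOXD11 and HOXD12 had 0 WT As3+ peaks and 2, 1, 4, 4 and 2 in Nrf2 KO control. The strongest of these had a fold of 7.38, the highest of any HOX peak, on 10 fragments (4.80 to 18.4), and lay 3334 bp upstream of the canonical TSS of HOXD11, a gene of the forearm, and 270 bp from the start of another HOXD11 transcript. HOXD4 and HOXD13, the latter a gene of the digits, had no peak within 2 kb in any list.

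**Figure D2:**
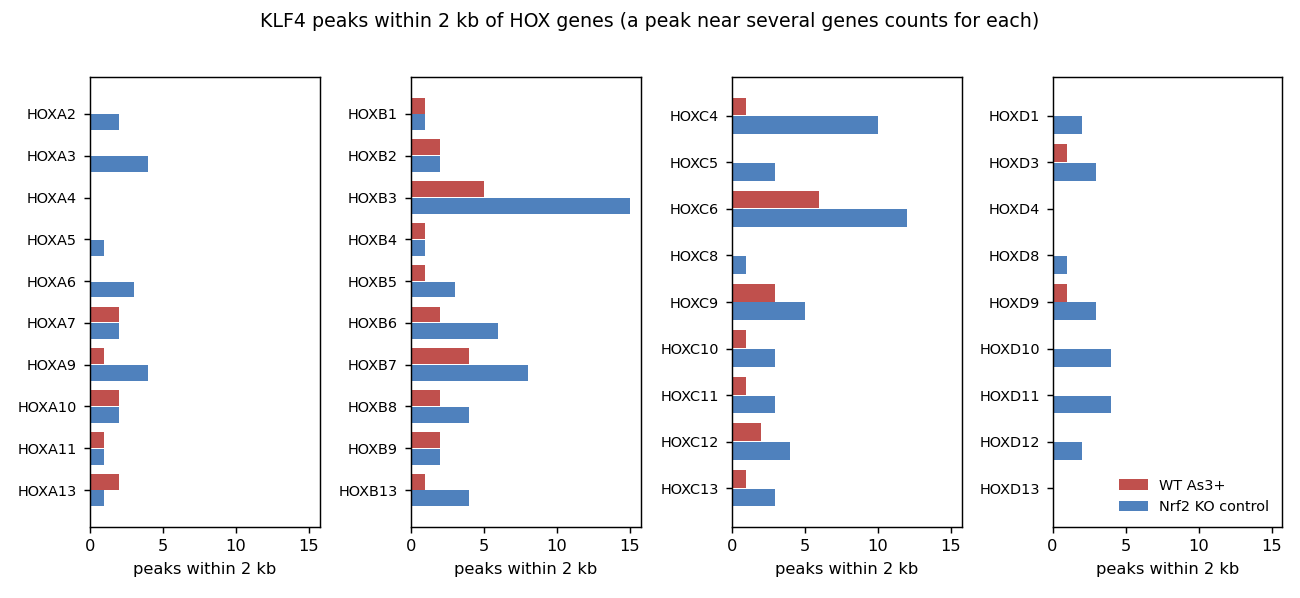
KLF4 peaks within 2 kb of the HOX genes shown, as the number of peaks on the horizontal axis, with WT As3+ in red and Nrf2 KO control in blue, for the 1 library of each condition. Genes of HOXD carry 0 or 1 red peaks, HOXC6 carries 6 and HOXB3 carries 15 blue ones, and HOXA4, HOXD4 and HOXD13 have no bar.

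A peak in both long lists was seen at 25 HOX genes (64.1%), beside 61.2% of all protein-coding genes, and a peak only in WT As3+ at 0, beside 2.64%. Both shares lie near those of all genes. A peak only in Nrf2 KO control, the longer list, was seen at 11 HOX genes (28.2%), beside 17.4%. Neither list had a peak at 3 genes, HOXA4, HOXD4 and HOXD13 (7.69%), beside 18.7%.

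By position in the clusters, pooled over clusters with unequal counts, the 8 genes of groups 1 to 3 at the 3′ end, none of them in HOXC, had 7 WT As3+ peaks or 0.875 per gene, the 15 genes of groups 4 to 8 had 11 or 0.733 per gene, of which HOXB held 7 and HOXD 0, and the 16 genes of groups 9 to 13 at the 5′ end had 15 or 0.938 per gene. In Nrf2 KO control the values were 1.88, 2.47 and 2.50 peaks per gene. Each peak was given to the gene with the nearest canonical TSS, which for HOXA3 and HOXB3 lies among the central genes. By paralog group, all 4 genes of group 9 (HOXA9, HOXB9, HOXC9 and HOXD9) had a peak in both long lists. Of the 4 genes of group 4, HOXB4 and HOXC4 did. Among all protein-coding genes the share was 61.2%. The only WT As3+ peak within 2 kb of HOXA9 lay in coding exon 1 of HOXA10, with a fold of 3.39 on 5 fragments.

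At their start sites HOX genes were less often listed in WT As3+ than other genes. A WT As3+ summit lay within 1 kb of the canonical TSS at 9 of 39 HOX genes (23.1%), beside 49.3% of all protein-coding genes. HOXA7, HOXA10, HOXB7, HOXB13 and HOXC9 were among them. In Nrf2 KO control 28 of 39 (71.8%) had a summit there, beside 63.6%, and 6 genes had one in both. The comparison was also made among CpG-dense TSS, a choice made after the lists were seen. These have at least 55% GC and an observed/expected CpG of at least 0.6 in 500 bp on either side. They made up 76.9% of HOX start sites, and 40.0% in HOXB, beside 59.9% of all protein-coding genes. Of 30 HOX genes with a CpG-dense TSS, 7 (23.3%) had a WT As3+ summit, beside 71.6% of all such genes, and 22 (73.3%) had a Nrf2 KO control summit, beside 85.9%. Of the 9 other HOX genes 2 (22.2%) had a WT As3+ summit, beside 15.9% of all genes without a CpG-dense TSS. A Nrf2 KO control summit was at 6 of these 9 (66.7%), beside 30.2%. The 57 genes of other homeobox families (DLX, NKX, IRX, LHX and others), developmental regulators with genes of similar size, gave 49.1% in WT As3+ and 82.5% in Nrf2 KO control.

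The Nrf2 KO control list is longer than that of WT As3+, so it was also cut to its 29870 strongest peaks. Then 16 HOX genes (41.0%) kept a TSS peak in Nrf2 KO control, beside 47.2% of all protein-coding genes and 67.6% of those with a CpG-dense TSS. At equal list length the share at HOX genes was thus 41.0% in Nrf2 KO control and 23.1% in WT As3+, while over all protein-coding genes it was 47.2% and 49.3%. Among genes of other homeobox families it was 61.4% and 49.1%. By cluster, WT As3+ had a TSS summit at 4 of 11 genes in HOXA, 3 of 10 in HOXB, 2 of 9 in HOXC and 0 of 9 in HOXD. Nrf2 KO control had 6, 7, 8 and 7 in its whole list, and 2, 4, 5 and 5 at equal list length, so that the order of the libraries turned in HOXA and held in the other clusters. When the start of any annotated transcript was used, 13 HOX genes (33.3%) had a WT As3+ summit within 1 kb, beside 54.4%, and 31 (79.5%) a Nrf2 KO control summit, beside 69.0%. Counting peaks, 12 of the 33 in WT As3+ and 35 of the 92 in Nrf2 KO control lay within 1 kb of a canonical HOX TSS, and 20 and 51 within 1 kb of the start of any HOX transcript.

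**Figure D3:**
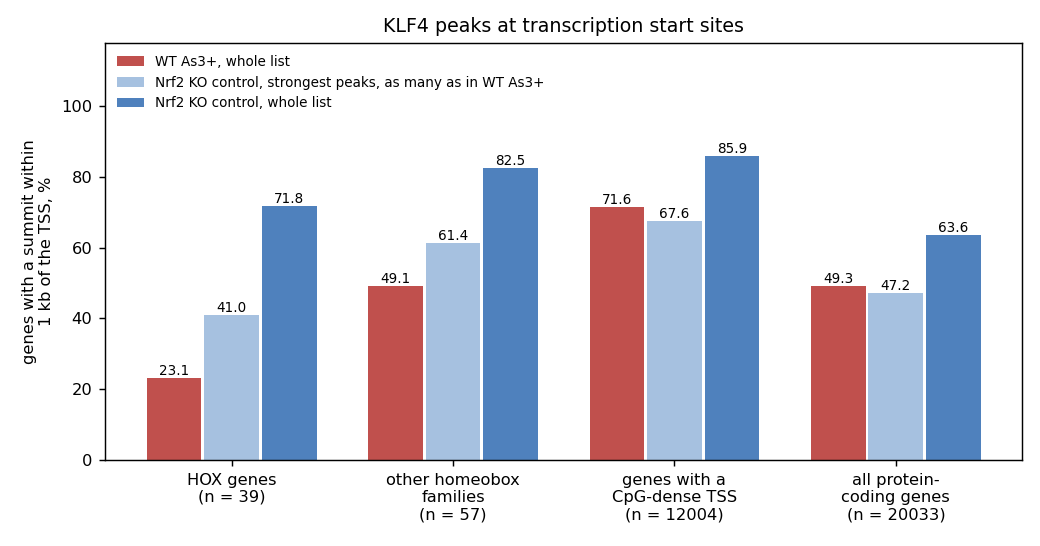
Percentage of genes with a KLF4 summit within 1 kb of the canonical TSS, on the vertical axis, for HOX genes, other homeobox families, genes with a CpG-dense TSS and all protein-coding genes, 1 library per condition. Red bars are WT As3+, dark blue bars Nrf2 KO control and light blue bars the strongest Nrf2 KO control peaks in the number of the WT As3+ list. The red bar is 23.1% for HOX genes and 49.1% to 71.6% for the other sets.

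The HOX peaks were of average or low strength for their lists. Their fold had a median of 4.55 in WT As3+ (3.08 to 6.83), beside 4.72 over that list, and of 4.72 in Nrf2 KO control (3.20 to 7.38), beside 4.69. Summits rested on 5 to 14 fragments in WT As3+ and 4 to 14 in Nrf2 KO control, so the count of any single peak carries an interval as wide as those given above. A −log10 q of at least 5 was reached by 3 of 33 WT As3+ peaks, which is 9.09% (exact Clopper-Pearson 95% interval 1.92 to 24.3, counting error only), beside 31.9% of the list, a value above that interval. In Nrf2 KO control 19 of 92 (20.7%, 12.9 to 30.4) did, beside 21.1%. The 3 peaks in WT As3+ were those at HOXA10, HOXB7 and HOXB2, the last with a fold of 5.49 on 14 fragments in coding exon 2. Counting genes, 5 of 39 (12.8%) had such a peak within 2 kb in WT As3+, beside 35.8%, and 18 (46.2%) in Nrf2 KO control, beside 48.3%. None of the WT As3+ peaks was 1 kb wide or more, beside 2.67% of that list. In Nrf2 KO control 1 was, near HOXC9, beside 2.23%. The median widths were 258 bp and 283.5 bp, beside 290 bp and 267 bp over the lists.

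**Figure D4:**
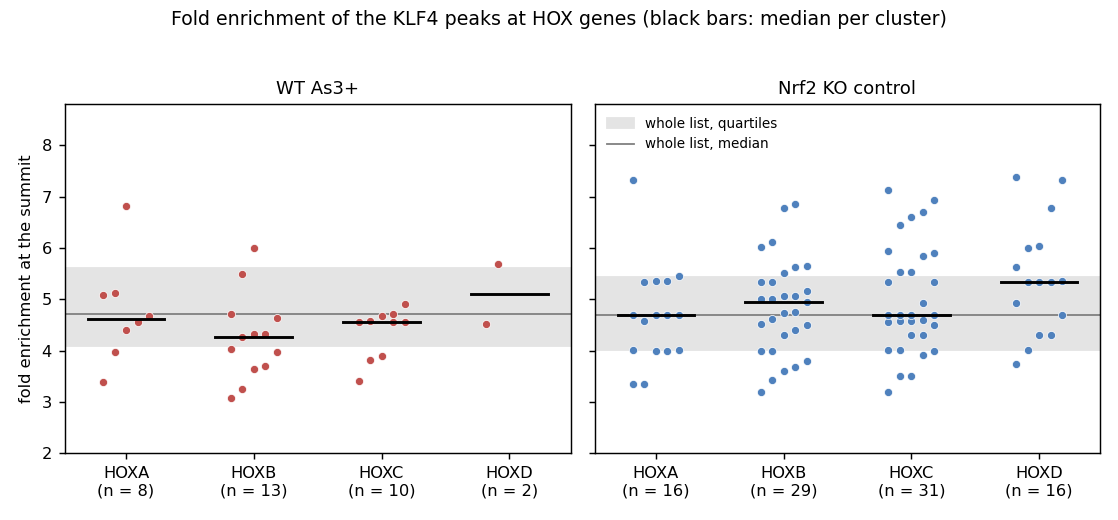
Fold enrichment at the summit (vertical axis) of each KLF4 peak at the HOX genes, by cluster, in WT As3+ (left) and Nrf2 KO control (right), 1 library each. Black bars are cluster medians, the grey band and line are the quartiles and the median of the whole list. Most points lie within or near the band, and no HOX peak exceeds a fold of 7.38.

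Summits were spread over the genes. Of the 33 WT As3+ summits 8 lay in coding exons, 2 in a 3′-UTR, 9 in introns and 14 outside the canonical transcripts of the members, and 15 were within 2 kb of more than 1 HOX gene. Of the 92 in Nrf2 KO control 22 lay in coding exons, 1 in a 5′-UTR, 6 in a 3′-UTR, 24 in introns and 39 outside. The median distance to the nearest canonical HOX TSS was 1773 bp in WT As3+ and 1387 bp in Nrf2 KO control. In peaks per 10 kb the HOX windows had 0.804 in WT As3+ and 2.24 in Nrf2 KO control, beside 0.165 and 0.390 in the windows of all protein-coding genes, whose median length is 27470 bp against 4216 bp for HOX genes. The windows of other homeobox genes, with a median length of 5641 bp, had 1.01 and 2.94.

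The KLF word was found under few HOX peaks. It occurred in the 200 bases around the summit of 1 of 33 WT As3+ peaks, 3.03% (0.0767 to 15.8), beside 10.3% of the list, and of 2 of 92 Nrf2 KO control peaks, 2.17% (0.264 to 7.63), beside 9.27%. The interval of Nrf2 KO control lies below the value of its list, while that of WT As3+ holds the value of its list. The GC content of the windows had a median of 64.0% in WT As3+ beside 64.5% over the list and of 63.25% in Nrf2 KO control beside 61.5%. The GC box occurred in 5 of 33 (15.2%, 5.11 to 31.9), beside 7.76%, and in 3 of 92 (3.26%, 0.678 to 9.24), beside 4.61%. The AP-1 word TGACTCA, searched on both strands, occurred in none, beside 4.33% and 2.54% of the lists, with exact upper limits of 10.6% and 3.93%. The windows with a KLF word were that of HOXD3 in WT As3+, printed above, in which CCACACCC is centred 7 bp from the summit, and those of HOXA9 and HOXD12 in Nrf2 KO control, which follow in the same form, the first shortened where an untranslated exon begins.
HOXA9, Nrf2 KO control, chr7:27164967-27165148: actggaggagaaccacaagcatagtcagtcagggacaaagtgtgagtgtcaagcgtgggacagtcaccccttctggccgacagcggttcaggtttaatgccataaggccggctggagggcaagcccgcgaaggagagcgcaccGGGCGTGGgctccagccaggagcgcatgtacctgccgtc
HOXD12, Nrf2 KO control, chr2:176098820-176099019: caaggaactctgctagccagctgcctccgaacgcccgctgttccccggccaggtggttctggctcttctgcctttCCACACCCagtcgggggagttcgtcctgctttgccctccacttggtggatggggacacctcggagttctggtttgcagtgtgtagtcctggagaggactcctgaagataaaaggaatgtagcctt
Their peaks had folds of 5.37 at HOXA9 and 4.93 at HOXD12, and the word was centred 65 bp and 21 bp from the summit.

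Of the 33 WT As3+ peaks 14 overlapped a Nrf2 KO control peak by at least 1 bp, 42.4% (25.5 to 60.8), beside 55.6% of the whole WT As3+ list and 62.7% of its peaks within 2 kb of protein-coding genes. The last value lies above the interval. In the other direction 15 of 92 did, 16.3% (9.42 to 25.5), beside 21.7% of the list and 26.4% of its peaks within 2 kb of protein-coding genes, of which the latter lies above the interval. HOXB held 7 of the shared WT As3+ peaks, HOXC 5, HOXA 2 and HOXD 0. In the 15 pairs of overlapping peaks the summits were 31 to 350 bp apart with a median of 227 bp, and 4 pairs had them within 100 bp. The closest pair was at HOXB13, a gene of the prostate and hindgut singled out after its values were seen, where folds of 4.72 in WT As3+ and 4.41 in Nrf2 KO control lay 31 bp apart in its coding exon 1.

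The clusters also hold genes for long non-coding RNA (lncRNA) and microRNA (miRNA), many of which take part in HOX regulation. Of 26 lncRNA genes between the first and last members, 17 had a WT As3+ summit within 2 kb and 22 a Nrf2 KO control summit, beside 28.5% and 43.9% of all lncRNA genes. Within 1 kb of their TSS 9 and 11 had one, beside 17.2% and 25.4%. These transcripts lie among the HOX genes, so that a summit can count for both. HOTAIR, the HOXC lncRNA known for binding Polycomb proteins, had 1 WT As3+ and 6 Nrf2 KO control summits. HAGLR, next to HOXD1, had 0 and 2.

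Of the 8 miRNA genes 1 had a WT As3+ summit within 2 kb, MIR196A2 between HOXC10 and HOXC9, and 5 had one in Nrf2 KO control, MIR196A1, MIR196B, MIR615, MIR3185 and MIR7704, beside 14.1% and 28.0% of all miRNA genes. MIR10A and MIR10B had none. Mature sequences of the miR-196 family, miR-10a and miR-615 are given from RefSeq (GRCh38.p14, with an entry for each of the 8 genes), 5′ to 3′ with bases 2 to 8, the seed, in capitals, because the miR-196 genes of 3 clusters share the seed AGGUAGU.
hsa-miR-196a-5p: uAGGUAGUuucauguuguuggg
hsa-miR-196b-5p: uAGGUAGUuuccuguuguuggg
hsa-miR-10a-5p: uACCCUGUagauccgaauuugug
hsa-miR-615-3p: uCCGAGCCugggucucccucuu
The peak near MIR196A2 had a fold of 4.59 on 8 fragments, and the stronger of the 2 Nrf2 KO control peaks near MIR615, which lies inside HOXC5, a fold of 6.46 on 9 fragments.

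Cofactors of HOX proteins and regulators of HOX chromatin were also counted. The PBX, MEIS and PKNOX cofactors bind DNA together with HOX proteins. All 9 of their genes had a peak within 2 kb in both long lists, beside 61.2% of all protein-coding genes. Within 1 kb of the TSS 6 had a WT As3+ and 8 a Nrf2 KO control summit, beside 49.3% and 63.6% of all protein-coding genes. Of 19 Polycomb, Trithorax and insulator genes 18 had a peak in WT As3+, all but PHC1, and 19 in Nrf2 KO control, beside 63.9% and 78.6% of all protein-coding genes. At the TSS 17 and 19 had one, beside 71.6% and 85.9% of genes with a CpG-dense TSS. KMT2A, a Trithorax histone methyltransferase that keeps HOX genes active, was the only one of them with a WT control peak, and its highest folds were 20.5 in WT As3+ and 20.3 in Nrf2 KO control. Of 6 upstream inducers 3 had a WT As3+ peak, the retinoic acid receptors RARA, RARB and RARG, beside 63.9% of all protein-coding genes. All 6 including CDX1, CDX2 and CDX4 had one in Nrf2 KO control, beside 78.6%. RARA and RARG each had 1 WT control peak, in a list where 2.28% of all protein-coding genes had a peak. EVX1 and EVX2, the homeobox genes at the 5′ ends of HOXA and HOXD, had 0 and 1 WT As3+ peaks and 2 each in Nrf2 KO control. These lists hold longer genes than the clusters, with medians of 140400 bp for the cofactors and 44780 bp for the chromatin regulators, so their counts within 2 kb are not on one scale with those of HOX genes.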

How the data were processed

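KLF4 ChIP-seq was measured in 4 libraries, and samples were grouped by genotype and treatment as labelled. Reads had been mapped by the authors with BWA to the human build hg38. The peak list deposited for each library gives a fold enrichment (a ratio to local background), −log10 p, −log10 q, the summit offset, and a score equal to 10 times −log10 q, rounded down. Peak caller, control and read totals are not given in the sources used here. The histone mark and input libraries were not used here.

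Distinct peaks were joined to GENCODE 44 genes and Ensembl canonical transcripts in Python 3.11.15 with numpy 2.4.6, pandas 2.3.3, scipy 1.17.1 and matplotlib 3.10.9. The fragments n over a summit and their background λ were solved from fold = (n + 1)/(λ + 1) and the upper Poisson tail, and recomputed −log10 p values differed from the deposited ones by 0.000405 or less. Code was tested on simulated data. Named genes were those with the strongest peak of each cluster and list, the one with the most WT As3+ peaks of each cluster (ties by −log10 q), and every gene without a peak in WT As3+ or Nrf2 KO control, with all others given by counts. Not every gene or sequence is reported here singly. The members and lists were chosen with earlier results of these data known. Alternatives changed windows, thresholds, list lengths, overlap and motif windows. Intervals cover counting error only, and shares of peaks treat neighbouring peaks as independent.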

Additional observations from a re-analysis of the deposited data

Results flagged for a closer look

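As3+ went with opposite changes in WT and Nrf2 KO cells. The number of HOX genes with a KLF4 peak was higher by 25 in WT As3+ than in WT control, and in Nrf2 KO cells the As3+ library minus its control was -36. In distinct peaks the differences were 33 in WT and -92 in Nrf2 KO. The share of all protein-coding genes with a peak moved the same way, from 2.28% to 63.9% in WT and from 78.6% to 0.414% in Nrf2 KO. The difference between the genotypes was not tested, since each condition has 1 library, and the lowest background of a library moved with it, from 1.90 to 0.757 fragments in WT and from 0.491 to 1.64 in Nrf2 KO.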

How the results depend on the processing

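Of 41 alternative values for the 2 long lists, 24 stayed within 1.5 times the count, or within the interval of the share, and 17 did not. The WT control and Nrf2 KO As3+ lists had 0 also within 5 kb of the genes, and the other settings could only lower their counts. The number of HOX genes with a WT As3+ peak, 25, became 9 within 1 kb of the canonical TSS, also at equal list length, 13 at the start of any transcript, 5 at a −log10 q of at least 5, and 0 among the 130 strongest peaks. For Nrf2 KO control, 36 became 29 at equal list length, beside 25 for WT As3+. The 36 became 18 at the stricter q, 16 at the TSS at equal list length, and 0 among the 130 strongest peaks. Distinct peaks fell from 33 to 3 and from 92 to 19 at the stricter q and to 0 and 0 among the 130 strongest, and from 92 to 41 in Nrf2 KO control at equal list length. The shared WT As3+ peaks, 42.4%, became 12.1% with summits within 100 bp and 0% of 3 peaks at the stricter q in both lists. The KLF word was then in 0% of 3 WT As3+ and 0% of 19 Nrf2 KO control windows. The counts of genes and peaks fall by construction, since each setting keeps fewer peaks or a narrower window. The shares at the stricter q are taken over fewer peaks and could also have risen. The start of any transcript, the equal-length TSS comparison and the CpG-dense background were chosen after seeing the data. No paired analysis was possible because each condition has 1 library, and no library could be left out for the same reason. Summits rest on 4 to 14 fragments, so single peaks and their order by strength are uncertain.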
